A study of Mus musculus with 6 samples.

Results

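The 9 genes Acvrl1, Eng, Bmpr2, Tmem100, Smad6, Smad9, Id1, Id2 and Id3 were taken from the deposited table by their symbols, 9 of its 55359 genes. All 9 were found, each on 1 row, and all 9 had enough counts to be tested. The lungs labelled Prmt5 knockdown (n = 3) and those labelled WT (n = 3) came from C57 mouse embryos at E18.5, late in gestation, and poly(A) RNA of whole lung was sequenced. The series text places the loss of Prmt5, an arginine methyltransferase, in Dermo1 mesenchyme, Dermo1 being another name of Twist2, and calls it a knockout, whereas the sample labels say knockdown. Endothelial cells were thus not the cells aimed at, and the labels do not say whether littermates or pooled lungs were used.

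ALK1, encoded by Acvrl1, is a type I receptor found mainly on endothelial cells, where it binds the circulating ligands BMP9 (gene Gdf2) and BMP10. Endoglin, encoded by Eng, is its co-receptor, and BMPR2 is the type II receptor that activates it. The active receptor phosphorylates the receptor-regulated Smads SMAD1, SMAD5 and SMAD9, which enter the nucleus with SMAD4 and switch on the Id genes, Smad6 and, in endothelium, Tmem100. SMAD6 feeds back as an inhibitor. ID proteins bind E proteins, a class of basic helix-loop-helix factors, and keep them off DNA. In people, loss of endoglin or ALK1 causes hereditary haemorrhagic telangiectasia, and loss of BMPR2 is the main heritable cause of pulmonary arterial hypertension.

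Prmt5 itself stood at 39.6, 47.8 and 46.9 CPM (CPM being counts scaled to the library total, itself scaled by TMM, the trimmed mean of M-values) in knockdown-labelled replicates 1 to 3 and at 46.7, 47.3 and 48.3 CPM in WT. Its difference did not pass the test (edgeR quasi-likelihood adjusted p = 0.682), so group names below are those of the labels. Twist2 stood at 1.05, 0.92 and 1.49 CPM in knockdown-labelled lungs and at 2.60, 2.05 and 3.08 CPM in WT (edgeR adjusted p = 0.163). Library totals ran from 14383415 to 19262837 counts. By Xist and Ddx3y, 2 knockdown-labelled embryos (replicates 1 and 3) and 1 WT embryo (replicate 1) were male, and the others were female. The summed level of 15 heart muscle genes was 4742, 14051 and 4121 CPM in knockdown-labelled replicates 1 to 3 and 580.5, 689 and 3465 CPM in WT, with none of the 15 at 0 counts in any library. Heart tissue has endothelial and endocardial cells of its own. Its part in the results below was not tested, and values with the heart muscle level as a covariate are given beside them. With that covariate the standard error of each of the 9 genes was larger than without it. Their edgeR adjusted p-values then ran from 0.673 to 0.824.

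The 9 genes were set in order by FPKM (the deposited fragment density, scaled to exonic length and library total), as deposited, since only a length-scaled level can be compared between genes. In knockdown-labelled lungs Id1 came first at 76.9 ± 5.49 FPKM and Acvrl1 next at 62.7 ± 7.39 FPKM, followed by Id2 (57.0 ± 9.96 FPKM), Id3 (49.5 ± 6.42 FPKM) and Eng (46.15 ± 6.398 FPKM). Tmem100 (31.4 ± 4.07 FPKM), Bmpr2 (12.7 ± 0.820 FPKM), Smad6 (12.1 ± 2.69 FPKM) and Smad9 (5.02 ± 1.11 FPKM) came after them. There Acvrl1, Id2, Id3 and Bmpr2 each overlapped the gene that followed it. In WT lungs Acvrl1 came first at 90.0 ± 5.67 FPKM, with Id1 next at 84.2 ± 5.74 FPKM, and the ranges of both overlapped. Id2 (61.5 ± 5.70 FPKM) and Id3 (60.1 ± 1.28 FPKM) also overlapped, followed by Eng (50.4 ± 2.23 FPKM) and Tmem100 (45.4 ± 2.01 FPKM). Bmpr2 (16.3 ± 0.692 FPKM) and Smad6 (14.1 ± 2.27 FPKM) overlapped, and Smad9 was lowest at 6.72 ± 0.524 FPKM (SD, n = 3 each). Acvrl1 and Id1 were the only genes whose places differed between the groups' orders. The receptor Acvrl1 was thus among the most abundant of these transcripts in whole lung, and its type II partner Bmpr2 stood well below it per length.

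**Figure D1:**
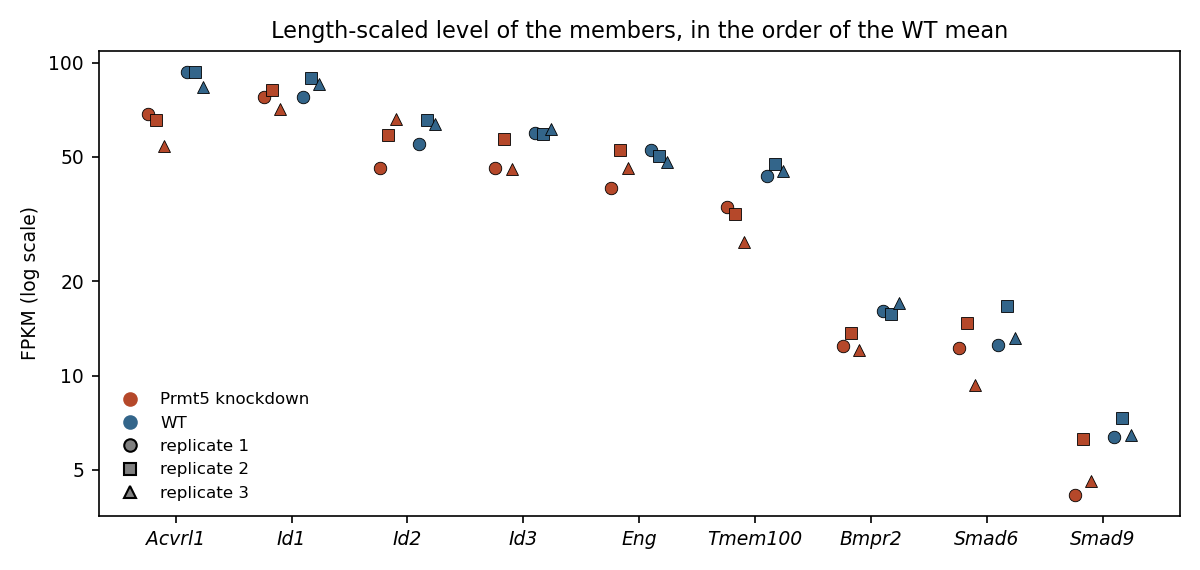
FPKM of each gene (log scale, vertical axis) in the 3 knockdown-labelled and the 3 WT libraries, with genes on the horizontal axis in the order of their WT mean. Acvrl1 and Id1 lie at the top and Smad9 at the bottom, at 4.17 to 6.28 FPKM in knockdown-labelled and 6.38 to 7.32 FPKM in WT lungs.

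The comparison asks how this endothelial pathway is transcribed in late fetal lung when Prmt5 is targeted in the mesenchyme. All 9 genes had lower means in the knockdown-labelled lungs, with log2 fold changes from -0.54 (Tmem100) to -0.12 (Id2) and a median of -0.29. Across all 17728 genes tested the median was 0.01, and 47.1% of genes had a negative value. By edgeR, 0 of the 9 had an adjusted p under 0.05, against 0.0338% of all genes (0.0282% lower and 0.00564% higher). At an unadjusted p under 0.05, 5 of the 9 were lower (Tmem100, Acvrl1, Bmpr2, Id3 and Smad9), against 8.52% of all genes. DESeq2 called 3 of the 9 lower (Acvrl1, Tmem100 and Bmpr2), against 3.02% of the genes for which it gave an adjusted p, and 0 higher, against 2.33%. At the unadjusted threshold in edgeR 5 of the 9 were lower with the heart muscle covariate, against 3.9% of genes, and 4 with embryo sex as a covariate, against 6.62%. The limma test on log2(FPKM + 1) called 0 of the 9. In 5 of the 9 every knockdown-labelled library lay below every WT library, which held for 12.4% of all genes, and in 0 every one lay above, against 10.8%. The labels do not give the litters, so the p-values take in only the variation among these 6 libraries, some of which may be technical. In RNA of a whole organ, fewer endothelial cells and less RNA per endothelial cell cannot be told apart.

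**Figure D2:**
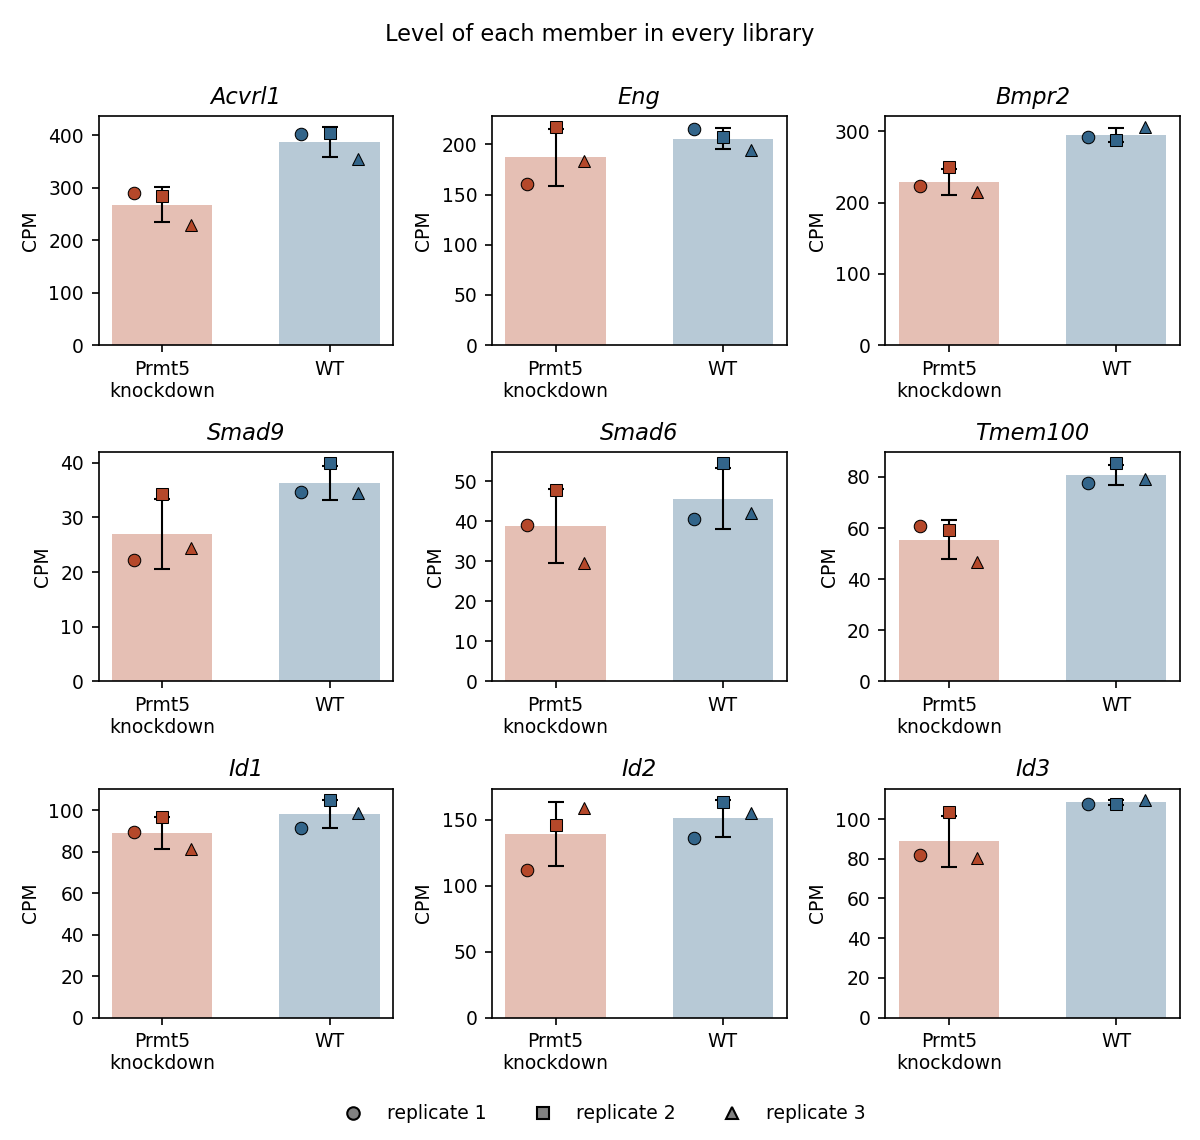
CPM of each of the 9 genes (vertical axes from 0), with knockdown-labelled lungs at left and WT at right; bars are group means, error bars are SD (n = 3) and symbols are single libraries. Acvrl1, Bmpr2 and Tmem100 have clearly separate groups, while the groups of Eng, Smad6, Id1 and Id2 overlap.

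Among the receptors, Acvrl1 (ENSMUSG00000000530, chromosome 15, 101026403 to 101043217 in the table's coordinates, plus strand) had the largest difference of the 3, though not with the heart muscle covariate. It stood at 289.6, 285 and 229 CPM in knockdown-labelled replicates 1 to 3, against 403, 403 and 355 CPM in WT. Every knockdown-labelled library lay below every WT library, with a gap of 65.0 CPM between the nearest, and knockdown-labelled replicate 3 was lowest. The means were 268 ± 33.8 and 387 ± 28.0 CPM (SD, n = 3 each), 30.8% lower in the fit. The log2 fold change was -0.53 (SE 0.11, 95% confidence interval -0.80 to -0.27, edgeR adjusted p = 0.131), and DESeq2 gave an adjusted p of 0.000544. With the heart muscle level as a covariate the log2 fold change was -0.48 (SE 0.20, edgeR adjusted p = 0.673). With embryo sex as a covariate it was -0.53 (edgeR adjusted p = 0.178).

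Bmpr2 (ENSMUSG00000067336, chromosome 1, 59802559 to 59918173, plus strand) stood at 223, 249.9 and 214 CPM in knockdown-labelled lungs, against 292, 287 and 306 CPM in WT. The groups did not overlap, and the nearest libraries were 37.5 CPM apart. The log2 fold change was -0.36 (SE 0.08, 95% confidence interval -0.55 to -0.17, edgeR adjusted p = 0.140), and DESeq2 gave an adjusted p of 0.00229. With the heart muscle covariate it was -0.52, and with embryo sex -0.33. BMPR2 is present on many cell types beside endothelium, so its whole-lung level is not an endothelial readout alone.

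Eng (ENSMUSG00000026814, chromosome 2, 32536607 to 32572681, plus strand) showed no such separation. It stood at 160.4, 217 and 184 CPM in knockdown-labelled lungs, against 215, 207 and 194 CPM in WT. Knockdown-labelled replicate 2 was the highest of all 6 libraries and replicate 1 the lowest, so the groups overlapped. Its log2 fold change was -0.14 (SE 0.12, 95% confidence interval -0.41 to 0.14, edgeR adjusted p = 0.599). It was -0.23 with the heart muscle covariate and -0.11 with embryo sex. Single libraries moved it, to -0.027 without knockdown-labelled replicate 1 and to -0.26 without replicate 2 (edgeR adjusted p = 0.278). The interval allows a decrease as large as that of Bmpr2. Fpgs on the opposite strand overlaps the last bases of Eng in the table, and Gm16031 lies within Acvrl1. No strand setting is given for the counts, but the 2 had 1896 and 417 counts over all libraries, against 18694 for Eng and 30943 for Acvrl1.

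Within a library, the log2 ratio of Acvrl1 to Eng was 0.85, 0.39 and 0.32 in knockdown-labelled lungs, against 0.90, 0.96 and 0.87 in WT. All 3 knockdown-labelled values lay below all 3 WT values, though replicate 1 lay close to them. The mean ratio differed by -0.39 (exact permutation p = 0.10, two-sided, the smallest that 3 against 3 allows). Of the 36 pairs among the 9 genes, compared this way after the data were seen, 5 had groups that did not overlap. The other 4 were Acvrl1, Bmpr2 and Tmem100 each against Id1, with differences of -0.40, -0.22 and -0.41, and Eng against Smad9, with 0.30. Adjusted over the 36 pairs each of the 5 had an adjusted exact permutation p of 0.491, and no p of this design can pass a threshold of 0.05. The 36 pairs draw on the same 9 genes, and the share of such pairs among other genes was not computed. The count of 5 thus has no background beside it and is not read as a trait of these genes.

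Of the transcripts of Smad1, Smad5 and Smad9, those of Smad9 had the lowest mean FPKM in both groups, though in WT its range overlapped that of Smad1. SMAD6 is an inhibitory Smad of the pathway. Smad9 (ENSMUSG00000027796, chromosome 3, 54663003 to 54708678, plus strand) stood at 22.2, 34.3 and 24.5 CPM in knockdown-labelled lungs, against 34.6, 39.9 and 34.5 CPM in WT. The groups were apart by only 0.161 CPM, between knockdown-labelled replicate 2 and WT replicate 3. In the fit this was a log2 fold change of -0.43 (SE 0.17, edgeR adjusted p = 0.268). It was -0.69 with the heart muscle covariate and -0.34 with embryo sex. Smad9 made up 10.7%, 16.8% and 13.3% of the summed FPKM of Smad1, Smad5 and Smad9 in knockdown-labelled lungs and 14.5%, 16.99% and 15.5% in WT, so those shares overlapped. The share of Smad1 was 21.8% ± 0.877 in knockdown-labelled lungs and 17.3% ± 0.617 in WT (SD, n = 3 each), and its groups did not overlap (exact permutation p = 0.10, two-sided, the smallest possible). The shares of Smad5 overlapped. Such shares were not computed for genes at large, so the separation of Smad1 has no background beside it. The level of Smad1 itself averaged 50.5 ± 2.80 CPM in knockdown-labelled lungs and 46.7 ± 3.27 CPM in WT, and its groups overlapped (edgeR adjusted p = 0.540).

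Smad6 (ENSMUSG00000036867, chromosome 9, 63860358 to 63929341, minus strand) had values of 39.1, 47.9 and 29.5 CPM in knockdown-labelled lungs, against 40.5, 54.4 and 42.0 CPM in WT. The groups overlapped, and replicate 2 was the highest library of each. Its log2 fold change was -0.24 (SE 0.19, edgeR adjusted p = 0.586), and -0.45 with the heart muscle covariate and -0.13 with embryo sex. It was -0.068 without knockdown-labelled replicate 3, -0.42 without knockdown-labelled replicate 2 and -0.091 without WT replicate 2. Its interval of -0.69 to 0.22 covers both no difference and a decrease larger than that measured for Acvrl1.

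Letters that BMP-activated Smads are known to bind were looked for in the RefSeq promoter windows (GRCm38.p6, 250 bases before to 50 after a gene's start), in which 6 of the 9 genes have an entry. Those without one are Acvrl1, Tmem100 and Id1. The searched motifs were GGCGCC and its longer form, the same letters followed by A, 4 bases of any kind, G, any base and C, both of the SMAD1 and SMAD5 type. The palindrome GTCTAGAC, of the SMAD4 type, was searched too, each on both strands. GGCGCC is part of the longer form, so those matches overlap. It was in 3 of the 6 windows (Bmpr2, Smad9 and Id2) and in 11.9% of all 32851 windows. GGCGCC holds only G and C, which made up 59.3% (Bmpr2) to 73.7% (Smad9) of the 6 windows. The G and C content of all windows was not computed, so 3 of 6 is not read as a trait of these genes. The longer form was in Smad9 and in 0.469% of all windows. GTCTAGAC was in Smad6 and in 0.213% of all windows. The windows of Eng and Id3 held none of the 3. The stretches with matches are shown because they place the Smad letters of the pathway's own feedback and effector genes, with the motif in capitals.
Smad6, chr9:64022035-64022103, minus strand, motif from base -4 to base 4 around the start: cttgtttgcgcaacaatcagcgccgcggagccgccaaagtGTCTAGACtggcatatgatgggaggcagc
Smad9, chr3:54755483-54755576, plus strand, longer form on the opposite strand, bases -59 to -46: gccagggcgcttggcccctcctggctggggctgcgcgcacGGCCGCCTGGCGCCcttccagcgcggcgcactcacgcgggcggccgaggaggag
Bmpr2, chr1:59764134-59764219, plus strand, bases -105 to -100: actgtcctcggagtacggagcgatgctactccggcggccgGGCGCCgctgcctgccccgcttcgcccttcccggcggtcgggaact
Id2, chr12:25096278-25096342, minus strand, bases -231 to -226: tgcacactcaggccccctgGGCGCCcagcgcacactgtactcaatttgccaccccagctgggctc
A match describes letters only, and binding was not measured. Of the 4 genes with a match, Bmpr2 and Smad9 had groups that did not overlap, and Smad6 and Id2 had groups that did. Those without a match were split too, as the groups of Id3 did not overlap and those of Eng did. Among all genes tested, every knockdown-labelled library lay below every WT library for 12.4%. A link between matches and differences was not tested.

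Among the targets, Tmem100 (ENSMUSG00000069763, chromosome 11, 89921174 to 89927334, plus strand), a small membrane protein of endothelium induced by BMP9 through ALK1, had values that ran close to those of its receptor. It stood at 60.6, 59.1 and 46.7 CPM in knockdown-labelled lungs, against 77.8, 85.3 and 79.2 CPM in WT. The groups did not overlap, the nearest libraries were 17.2 CPM apart, and knockdown-labelled replicate 3 was lowest, as for Acvrl1. The log2 fold change was -0.54 (SE 0.11, 95% confidence interval -0.81 to -0.28, edgeR adjusted p = 0.128), and DESeq2 gave an adjusted p of 0.00178. The log2 ratio of Acvrl1 to Tmem100 within a library was 2.27 ± 0.0181 in knockdown-labelled lungs and 2.26 ± 0.105 in WT (SD, n = 3 each), a difference of 0.01. With the heart muscle covariate the log2 fold change of Tmem100 was -0.61, and with embryo sex -0.51.

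The 3 Id genes, the best known direct targets of BMP-activated Smads, had fold changes closer to 0 than those of Acvrl1 and Tmem100. Id1 (ENSMUSG00000042745, chromosome 2, 152578171 to 152579330, plus strand) stood at 89.8, 96.7 and 81.3 CPM in knockdown-labelled lungs, against 91.3, 105 and 98.9 CPM in WT. The groups overlapped, and the log2 fold change was -0.14 (SE 0.09, 95% confidence interval -0.35 to 0.07, edgeR adjusted p = 0.479). It was -0.27 with the heart muscle covariate, -0.086 with embryo sex, -0.076 without knockdown-labelled replicate 3 and -0.093 without WT replicate 2. Id3 (ENSMUSG00000007872, chromosome 4, 135870808 to 135873066, plus strand) stood at 81.8, 104 and 80.6 CPM in knockdown-labelled lungs, against 108, 108 and 109.8 CPM in WT. Its groups were apart by 3.79 CPM and its WT libraries agreed closely, with a coefficient of variation of 1.15% against 14.7% in knockdown-labelled lungs. The log2 fold change of Id3 was -0.29 (SE 0.11, edgeR adjusted p = 0.250). It was -0.50 with the heart muscle covariate and -0.24 with embryo sex.

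Id2 (ENSMUSG00000020644, chromosome 12, 25143798 to 25147139, minus strand), which in lung is also a gene of the distal tip epithelium, stood at 112, 146 and 158 CPM in knockdown-labelled lungs. It stood at 136, 163 and 155 CPM in WT. The groups overlapped, with replicate 1 the lowest library of each. Its log2 fold change was -0.12 (SE 0.14, edgeR adjusted p = 0.709), and without knockdown-labelled replicate 1 it turned to 0.022. It was -0.22 without knockdown-labelled replicate 3, -0.19 and -0.065 without WT replicates 1 and 2, -0.24 with the heart muscle covariate and -0.062 with embryo sex. Of the summed FPKM of Id1, Id2, Id3 and Id4, Id1 held 40.8% ± 3.61 in knockdown-labelled lungs and 40.03% ± 0.638 in WT. Id2 held 30.1% ± 4.23 in knockdown-labelled lungs and 29.2% ± 1.07 in WT, and Id3 26.1% ± 2.02 and 28.6% ± 1.57. These 3 shares overlapped between groups. Id4, not among the 9 genes, held 2.94% ± 0.737 in knockdown-labelled lungs and 2.13% ± 0.139 in WT (SD, n = 3 each), and its groups did not overlap (exact permutation p = 0.10, two-sided, the smallest possible). Its share was largest in knockdown-labelled replicate 3, at 3.79%. The separation of these shares of Id4 has no background beside it either. The level of Id4 itself averaged 21.3 ± 5.22 CPM in knockdown-labelled lungs and 17.3 ± 1.57 CPM in WT, and its groups overlapped (edgeR adjusted p = 0.449).

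The spread among the 3 knockdown-labelled lungs exceeded that among the 3 WT lungs for all 9 genes, with coefficients of variation of 8.12% to 23.8% against 1.15% to 16.8%. The same held for 62.8% of all genes tested. Over all genes the chi-square per degree of freedom between libraries was 39.6 to 44.4 for knockdown-labelled pairs and 13.2 to 21.8 for WT pairs. Genes of high counts weigh most in that measure. A wider spread in the knockdown-labelled group was thus not confined to the 9 genes, and its source was not tested. Knockdown-labelled replicate 2 was the library richest in heart muscle transcripts and the only female of its group. It was the highest of its group for 6 of the 9 genes, the exceptions being Acvrl1, Tmem100 and Id2. The male replicates 3 and 1 were the lowest of that group for 6 and 3 of the 9. In WT the female replicates 2 and 3 were highest for 6 and 2 of the 9, and the male replicate 1 for 1. The part of sex or of heart tissue in these orders was not tested. Without knockdown-labelled replicate 2 the median log2 fold change of the 9 genes was -0.42, against -0.29 with all libraries. The 9 values then ran from -0.64 (Smad9) to -0.16 (Id2).

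**Figure D3:**
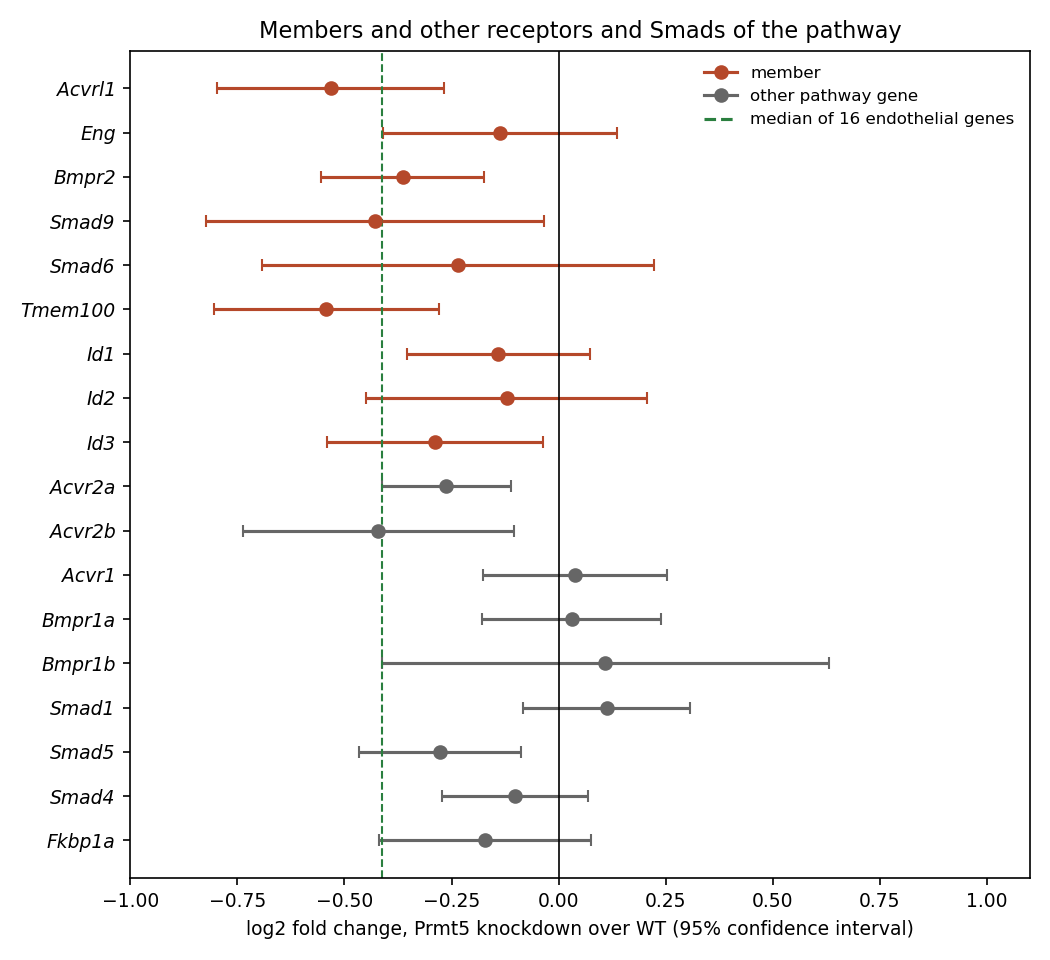
Log2 fold change of knockdown-labelled over WT lungs (horizontal axis) with its 95% confidence interval from edgeR for the 9 genes and 9 other receptors, Smads and partners of the pathway. The dashed line is the median of 16 endothelial genes (-0.41). The intervals of Acvrl1, Bmpr2, Smad9, Tmem100 and Id3 lie below 0, as do those of Acvr2a, Acvr2b and Smad5.

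Other endothelial transcripts had lower means as well. Of 16 endothelial genes that are not among the 9, all 16 had means below WT in the fit, against 47.1% of all genes. Their median log2 fold change was -0.41. At an unadjusted p under 0.05 13 of the 16 were lower, against 8.52% of all genes, and 0 passed the adjusted threshold. Tie1, an endothelial receptor tyrosine kinase, averaged 189.7 ± 17.6 CPM in knockdown-labelled lungs and 272 ± 17.3 CPM in WT. Robo4 averaged 73.9 ± 3.60 CPM in knockdown-labelled lungs and 98.4 ± 6.51 CPM in WT, the adhesion molecule Pecam1 459 ± 52.9 and 635 ± 41.8 CPM, and the angiopoietin receptor Tek 104 ± 11.4 and 136 ± 4.99 CPM (SD, n = 3 each). To set the 9 genes against such transcripts, the mean log2 CPM of the 16 was subtracted in each library. That mean was 7.17, 7.32 and 7.03 in knockdown-labelled lungs and 7.66, 7.56 and 7.49 in WT.

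Relative to the 16 endothelial genes, the lowest knockdown-labelled value of Eng and of Id1 exceeded the highest WT value. On this scale that held for 54.2% of all genes tested, since the subtracted mean was itself lower in knockdown-labelled lungs, so 2 of the 9 is below the background. No gene of the 9 lay wholly below WT, against 0.903% of all genes. For Eng this relative level was 0.15, 0.45 and 0.49 in knockdown-labelled lungs, against 0.10, 0.14 and 0.11 in WT. The difference of 0.25 had an exact permutation p of 0.10, two-sided, the smallest that 3 against 3 allows. With the median of the 16 in place of their mean it was 0.17 (exact permutation p = 0.30), and the groups then overlapped. For Id1 the relative level was -0.68, -0.72 and -0.68 in knockdown-labelled lungs, against -1.14, -0.84 and -0.86 in WT, a difference of 0.25 (exact permutation p = 0.10, two-sided).

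The other 7 overlapped on this relative scale. Acvrl1 differed by -0.14 (exact permutation p = 0.30), Tmem100 by -0.15 (exact p = 0.20), Bmpr2 by 0.03 (exact p = 0.80) and Smad9 by -0.05 (exact p = 0.80). Id2 differed by 0.26 (exact p = 0.40), Smad6 by 0.15 (exact p = 0.50) and Id3 by 0.10 (exact p = 0.30). The relative levels of Acvrl1 and Tmem100 thus differed by less than the spread between libraries could separate. With the median of the 16 in place of their mean, Acvrl1 lay wholly below WT and differed by -0.22 (exact permutation p = 0.10, two-sided, the smallest possible), against 1.37% of all genes wholly below, and Bmpr2 differed by -0.05. Wholly above on that scale was 1 of the 9, Id1, against 41.3% of all genes. The outcome for Acvrl1 thus rests on how the 16 are summarised. No p of this comparison could pass 0.05.

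**Figure D4:**
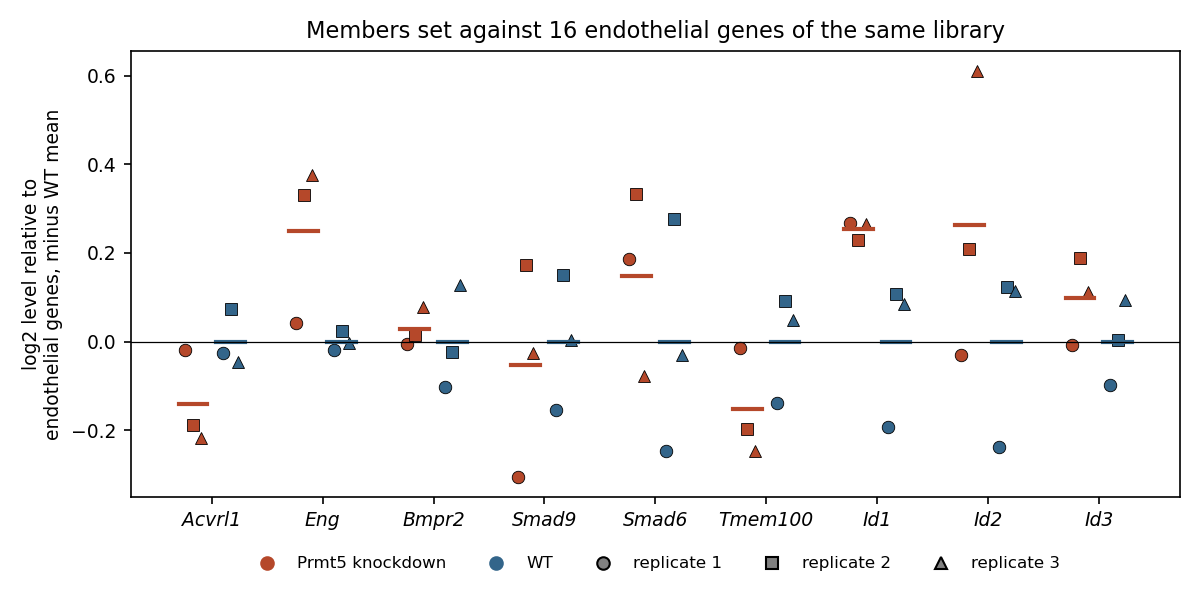
Log2 CPM of each gene minus the mean log2 CPM of 16 endothelial genes of the same library, drawn as the difference from the WT mean (vertical axis); symbols are libraries and short lines are group means. The knockdown-labelled symbols of Eng and Id1 lie above those of WT, by 0.25 on average for both genes, as do those of 54.2% of all genes on this scale.

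The ligands were measured too. Gdf2, which encodes BMP9 and is made in liver, had 2, 4 and 3 counts in knockdown-labelled lungs and 7, 2 and 6 in WT, too few to be tested. Bmp10, a ligand of ALK1 made by heart muscle and above all by the right atrium, had 1966, 1175 and 190 counts in knockdown-labelled replicates 1 to 3. It had 0, 3 and 810 counts in WT replicates 1 to 3. In CPM these were 121, 83.1 and 9.74 in knockdown-labelled lungs, against 0, 0.212 and 51.9 in WT, and the groups overlapped. The log2 fold change of 2.03 (SE 1.64, 95% confidence interval -1.85 to 5.92) did not pass (edgeR adjusted p = 0.581).

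Bmp10 was high where the atrial heart gene Nppa was high. Nppa, which encodes atrial natriuretic peptide, stood at 453, 382 and 84.3 CPM in knockdown-labelled lungs and at 0.247, 3.88 and 333 CPM in WT. The order of the 6 libraries by Bmp10 was the same as that by Nppa, with knockdown-labelled replicate 1 highest and WT replicate 1 lowest. Myl2, a ventricular light chain, followed another order, with 6.79, 958 and 35.7 CPM in knockdown-labelled lungs and 0.494, 0.918 and 5.38 CPM in WT. Bmp10 transcripts thus varied from 0 to 1966 counts among lungs, while the 9 pathway genes varied far less.

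**Figure D5:**
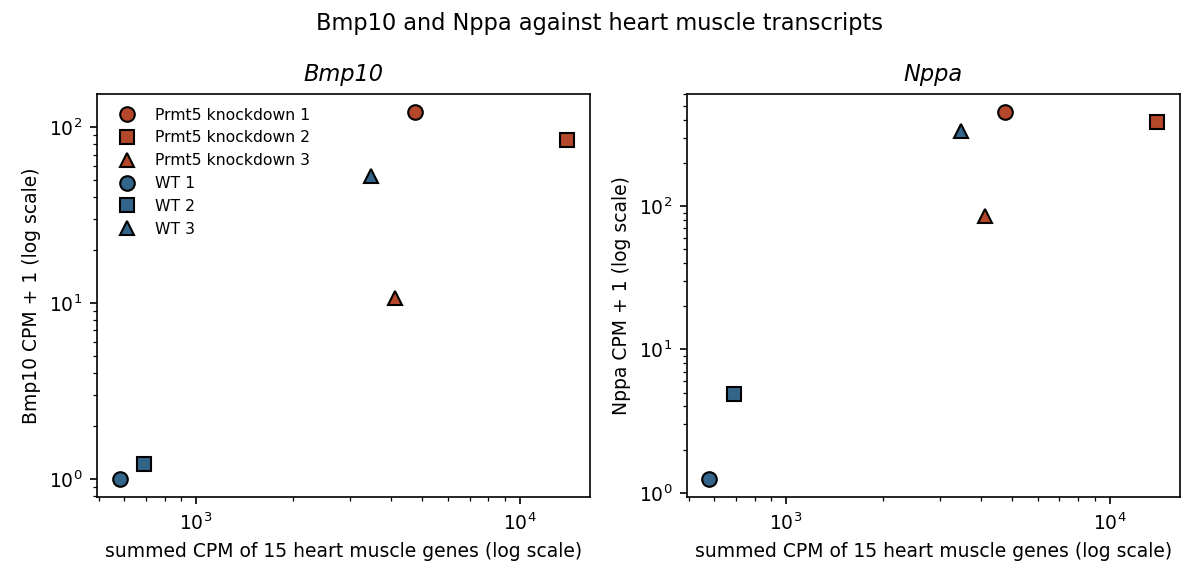
CPM + 1 of Bmp10 (left) and Nppa (right) on log axes against the summed CPM of 15 heart muscle genes (log axis); red symbols are knockdown-labelled and blue symbols WT libraries. WT replicates 1 and 2 lie at the lower left with 580.5 and 689 summed CPM, and WT replicate 3 lies near the knockdown-labelled libraries with 3465.

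The other ligands, receptors and Smads of the pathway showed a mixed picture. Of 11 such genes, Gdf2 and Bmp10 among them, 10 were tested, and 5 had negative and 5 positive log2 fold changes. At an unadjusted p under 0.05 3 were lower, against 8.52% of all genes, and 0 passed the adjusted threshold. Those 3 were the type II receptors Acvr2a (80.4 ± 3.48 CPM in knockdown-labelled lungs and 96.5 ± 1.12 CPM in WT) and Acvr2b (6.89 ± 0.357 and 9.22 ± 0.385 CPM), and Smad5 (177 ± 14.6 and 215 ± 7.72 CPM). Their edgeR adjusted p-values were 0.148, 0.209 and 0.188. Of the other type I receptors, Acvr1 had a log2 fold change of 0.04 and Bmpr1a of 0.03 (edgeR adjusted p = 0.879 and 0.902). That of Bmpr1b was 0.11, with a wide interval of -0.41 to 0.63 (edgeR adjusted p = 0.852). Fkbp1a, whose product keeps type I receptors inactive, averaged 317 ± 38.1 CPM in knockdown-labelled lungs and 357 ± 22.8 CPM in WT (edgeR adjusted p = 0.456).

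Of 12 antagonists 8 had negative values, 0 passed the adjusted threshold, and at an unadjusted p under 0.05 3 were lower and 2 higher. Of all 17728 genes tested, 1511 were lower and 1504 higher at that unadjusted threshold. The ubiquitin ligase genes Smurf2 and Smurf1 averaged 165 ± 7.13 and 81.7 ± 2.22 CPM in knockdown-labelled lungs and 194.7 ± 7.07 and 93.7 ± 4.42 CPM in WT. The repressor gene Skil averaged 84.5 ± 0.643 CPM in knockdown-labelled lungs and 101 ± 9.85 CPM in WT. Tob1, an inhibitor of BMP Smads, had the higher mean, with 81.9 ± 2.50 CPM in knockdown-labelled lungs and 65.1 ± 4.43 CPM in WT (SD, n = 3 each). Their edgeR adjusted p-values were 0.177, 0.223, 0.219 and 0.144 in the order named.

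Further genes that ALK1 signalling induces in endothelium did not move one way. Of 11 on that list 5 were negative and 6 positive, with a median of 0.03. None passed the adjusted threshold in edgeR. At an unadjusted p under 0.05 2 were lower and 3 higher, against 1511 and 1504 of all 17728 genes tested. Gja4, which encodes the arterial connexin 37, averaged 30.3 ± 3.31 CPM in knockdown-labelled lungs and 42.9 ± 3.88 CPM in WT (edgeR adjusted p = 0.135), and Atoh8 averaged 38.8 ± 6.34 and 48.2 ± 2.25 CPM. Gja5, which encodes connexin 40 and is also a gene of atrial muscle, averaged 74.6 ± 4.71 CPM in knockdown-labelled lungs and 60.1 ± 6.17 CPM in WT. The Notch ligand gene Jag1 averaged 72.5 ± 13.7 and 55.8 ± 3.09 CPM.

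Of 4 genes that the pathway represses, Apln averaged 29.6 ± 4.88 CPM in knockdown-labelled lungs and 40.5 ± 7.31 CPM in WT, and Cxcr4 32.0 ± 4.36 and 25.9 ± 2.42 CPM. Esm1 averaged 3.08 ± 1.94 CPM in knockdown-labelled lungs and 1.52 ± 0.320 CPM in WT, and Angpt2 18.52 ± 3.11 and 17.2 ± 3.15 CPM. Their edgeR adjusted p-values ran from 0.255 to 0.813. The E protein genes Tcf4 and Tcf12, whose products ID proteins bind, averaged 184 ± 8.37 and 168 ± 7.92 CPM in knockdown-labelled lungs and 208 ± 14.5 and 183 ± 6.10 CPM in WT. Tcf3 averaged 108 ± 0.914 CPM in knockdown-labelled lungs and 107 ± 6.24 CPM in WT. None of the 3 passed (edgeR adjusted p = 0.299, 0.394 and 0.958). For Tcf4 and Tcf12 every knockdown-labelled library lay below every WT library, which held for 12.4% of all genes.

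Genes with the profile closest to that of Acvrl1 were found by the root mean square difference of centred log2 CPM over the 6 libraries, among 10751 named genes of at least 10 CPM. The nearest 5 were Arrb1, Esam, Ptprb, Clstn2 and Ndst1, with differences of 0.0508 to 0.0551, against a median of 0.308 over all candidates. Esam and Ptprb are among the 16 endothelial genes above, and Tmem100 with a difference of 0.0619 would have come in place 8. Bmpr2 differed by 0.148, Id1 by 0.224 and Eng by 0.259. The nearest 5 to Id1 were Tle6, Ctdspl2, Igf2r, Zfp800 and Itga2b, with differences of 0.0113 to 0.0249, against a median of 0.166. Of the other 8 genes Id3 was the nearest to Id1, with 0.118.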

How the data were processed

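Whole-lung poly(A) RNA was measured in 6 libraries. The deposited table gives unnormalized read counts by gene, made by the authors, beside FPKM and exonic length, per the file headers. FPKM recomputed from counts, totals and lengths differed by at most 0.005. Tools listed in the submitters' processing notes, in no stated role, were HTSeq 0.6.1, HISAT2 2.0.1 and cutadapt 1.9.1. The build is not given in the sources used here, nor is the strand setting, so table coordinates are printed without a build. Promoter coordinates are GRCm38.p6.

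The counts as deposited were tested with edgeR 4.0.16 in R 4.3.3 (filterByExpr, TMM, quasi-likelihood, group as the only term) over 17728 genes, with Benjamini-Hochberg adjustment over all of them and a threshold of 0.05, two-sided. Each standard error is the size of the log2 fold change over the root of its F statistic. DESeq2 1.42.0 and limma 3.58.1 on log2(FPKM + 1) or log2(FPKM + 0.1), keeping genes that averaged 1 FPKM or more, were alternatives. So were other scalings and filters, covariates and leaving out each library. A floor of 3 counts is 0.156 to 0.209 CPM. Across genes the common biological coefficient of variation came to 21.8%. Libraries of a group differed by more than counting noise, with a chi-square per degree of freedom of at least 13.2.

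The 9 genes and all lists were chosen with earlier results of these data known. Genes named are Prmt5, Twist2, the 9 genes, Gdf2 and Bmp10, whole lists of up to 6 genes and otherwise up to 4 per list with the smallest p, and the nearest 5 profiles to Acvrl1 and Id1. Acvr1, Bmpr1a, Bmpr1b, Myl2, Nppa, Id4, Smad1, Lyz2, Col1a1 and Col1a2 were added after their values were seen. Lists cover other receptors and Smads, antagonists, induced and repressed targets, E proteins, endothelium, heart muscle, red cells, epithelium, mesenchyme and leukocytes.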

Additional observations from a re-analysis of the deposited data

How the results depend on the processing

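No paired analysis was possible because the replicate numbers follow the order of the samples and pair nothing. Among the 17 alternative fits the log2 fold changes of the 9 genes stayed negative, except that of Id2, which was 0.022 without knockdown-labelled replicate 1. No alternative but DESeq2 called any of the 9: it called 3 (Acvrl1 -0.53, Bmpr2 -0.36 and Tmem100 -0.54). Over all genes 5 were lower and 1 higher. These counts were 49 and 32 with no filter, 482 and 372 with DESeq2, 3 and 0 with limma on log2(FPKM + 0.1), 0 and 0 with embryo sex as a covariate, and 1 and 0 with the heart muscle covariate. With robust quasi-likelihood 14 were lower. With a library left out 0 to 4 were lower and 0 to 13 higher, the 13 without WT replicate 3, and at an unadjusted p under 0.05 there were 1511 lower and 1504 higher. The median of the 9 genes was -0.48 with the heart muscle covariate, -0.24 with embryo sex and -0.42 to -0.22 with a library left out. With the heart muscle covariate medians were 0.22 for induced targets, 0.061 for heart muscle, 0.57 for red cells, 0.21 for epithelium and 0.17 for leukocytes. With a library left out they were 1.54 to 3.66 for heart muscle, -0.28 to 0.25 for red cells and 0.22 to 0.55 for leukocytes. Relative to endothelium Bmpr2 was at -0.046 with the list's median, and at -0.023 to 0.093 with a library left out, where Smad9 was at -0.165 to 0.074. The covariate is the mean log2 CPM of the heart muscle genes themselves, so their median of 0.061 follows from the fit. The cause of the other shifts was not tested. Gdf2 lies near the count floor in all 6 libraries.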

Other observations

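Markers of other lung cells were read beside the endothelial genes, and 0 of each list passed in edgeR at an adjusted p of 0.05. Of 8 mesenchymal genes 6 had lower means in knockdown-labelled lungs, and the median log2 fold change was -0.26. At an unadjusted p under 0.05, 4 were lower and 1 higher, against 1511 and 1504 of all 17728 genes tested. Foxf1, a transcription factor of lung mesenchyme that is also needed for lung vessels, averaged 139 ± 23.8 CPM in knockdown-labelled lungs and 218 ± 19.1 CPM in WT. Pdgfra averaged 174 ± 20.4 CPM in knockdown-labelled lungs and 229 ± 6.69 CPM in WT, Tbx4 153 ± 14.3 and 206 ± 22.0 CPM, and Pdgfrb 238 ± 17.2 and 299 ± 24.6 CPM (SD, n = 3 each). The 1 higher gene was Col1a1, with 1613 ± 246 CPM in knockdown-labelled lungs and 1239 ± 123 CPM in WT. Col1a2 had 1535 ± 231 and 1381 ± 141 CPM. The 8 summed to 4442, 3892 and 4704 CPM in knockdown-labelled lungs and 3904, 4340 and 4132 CPM in WT. These sums overlapped, and most of each came from Col1a1 and Col1a2.

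The 7 leukocyte genes all had positive values with a median of 0.34. At an unadjusted p under 0.05 2 of them were higher, against 1504 of all 17728 genes tested. The summed level of the 7 was 700.3, 773 and 716 CPM in knockdown-labelled lungs and 654, 785 and 621 CPM in WT, so the groups overlapped. Most of each sum came from Lyz2, with 580, 631 and 616 CPM in knockdown-labelled lungs and 565, 705 and 511 CPM in WT. The sum thus mainly follows that gene. Of 8 epithelial genes 4 were negative, with a median of 0.00, and 1 was lower at an unadjusted p under 0.05, against 8.52% of all genes. That was Ager, a gene of alveolar type 1 cells, with 945 ± 83.9 CPM in knockdown-labelled lungs and 1393 ± 120 CPM in WT (edgeR adjusted p = 0.116). The 7 red cell genes had a median of 0.04, and none had an unadjusted p under 0.05. The 15 heart muscle genes all had positive values with a median of 2.27. At an unadjusted p under 0.05 11 of them were higher, against 1504 of all 17728 genes tested. Among the 15, Tnni3 averaged 138 ± 94.1 CPM in knockdown-labelled lungs and 30.2 ± 23.3 CPM in WT (edgeR adjusted p = 0.191).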
